A study of Arabidopsis thaliana with 4 samples.

Results

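The transcript levels described here are those of Arabidopsis thaliana mesophyll protoplasts that had received control plasmid DNA and nothing else. Mesophyll protoplasts are green leaf cells whose walls have been digested away, and they take up DNA readily. The members are the 2 arrays whose titles name control DNA, out of 4 in the series. They were chosen by title, so no measured value entered the choice. The other 2 arrays carried RNA of protoplasts transfected with KIN10, a kinase subunit. They serve below only as a second reading of the difference between the 2 experiments, and no level was compared between control and KIN10.

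Both control arrays share the same handling, per the labels. Plants grew in soil with 13 h of light and 11 h of dark at 23 degrees Celsius and 65% relative humidity, and leaves were taken 2 h after the light came on. Protoplasts from 36 plants were pooled, 1 mg of control DNA was given, and the cells stood in mannitol buffer under light for 6 h. From each transfection 8 ug of total RNA was labelled for an Affymetrix array. The 2 arrays come from experiments done by different people with different soil, plants, chambers, DNA preparations and array facilities. Each experiment gives 1 control array, so person, plants and facility cannot be told apart, and the difference between the arrays has no replicate check. No untransfected or intact-leaf sample was used, so what isolation or transfection did to these cells was not measured.

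Mesophyll cells carry out most of a leaf's photosynthesis. The photosystems, the cytochrome b6f complex and the plastid ATP synthase are each built from subunits of 2 origins, some encoded in the plastid's own chromosome and the rest in the nucleus. The carbon-fixing Calvin-Benson cycle is run mainly by nuclear-encoded enzymes, with rbcL, the large subunit of Rubisco, encoded in the plastid. Protoplast isolation wounds the leaf and strips the wall, and genes of defence, detoxification and wall repair are commonly followed in such cells.

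Each level below is the deposited signal divided by the median signal of its array, called times the median, and each mean ± SD is on the log2 scale of the same ratio, over the 2 arrays (n = 2). A signal depends on the probes as well as on the transcript, so orders below are orders of signal and not of transcript number. The arrays hold 22746 probe sets apart from the controls. Of these, 13513 could be given a single gene name, 503 matched several genes and 8730 were unnamed in the annotation tables. Of the 100 highest of all probe sets only 31 had a single name, so the account covers a minority of the brightest features. Fewer cells of a type and less RNA per cell cannot be told apart in these pooled samples.

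The cells' labelled identity was checked first. Of 18 mesophyll and chloroplast markers 4 had a named probe set, and all 4 lay above the median of both arrays. LHCB4.1, an antenna protein of photosystem II, stood at 49.7 times the median on control array 1 and 73.9 on control array 2. RCA, which activates Rubisco, stood at 36.5 and 88.1. The Calvin-Benson enzymes SBPASE and PRK stood at 5.11 and 4.09 on control array 1 and at 14.7 and 15.8 on control array 2. Of 8 markers measured for other cell types, FMA and SWEET11 lay above the median on control array 1 and none on control array 2. The guard cell lineage factors FMA, SPCH and MUTE had signals of 1.19, 0.152 and 0.0353 times the median on control array 1 and 0.762, 0.0629 and 0.0198 on control array 2. The fourth guard cell marker measured, AT1G22690, stood at 0.236 and 0.178. The trichome factor TRY stood at 0.375 and 0.318. Of the phloem markers, the sugar exporter SWEET11 stood at 1.44 and 0.567 and AT1G64370 at 0.331 and 0.0437. The pollen marker AT3G07820 stood at 0.0390 and 0.0262. For scale, the 27 control probe sets for Bacillus transcripts had a median of 0.0594 and 0.0332 times the median. No marker of epidermis, xylem, myrosin cells, roots or seeds had a single-name probe set, so these cell types were not checked.

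The highest named signals came from plastid genes of the thylakoid complexes and from nuclear genes of varied kinds, many of them known here only by a locus code. The 25 named probe sets with the highest mean ran from 64.0 to 121 times the median on control array 1 and from 87.3 to 165 on control array 2. Of these, 6 were plastid genes. The highest of all was atpB, the beta subunit of the plastid ATP synthase, at 121 and 152 times the median (7.08 ± 0.23). Its neighbour atpE, the epsilon subunit, stood at 103 and 110 (6.74 ± 0.07). The cytochrome b6 gene petB stood at 88.6 and 125, and the photosystem II genes psbM and psbF at 84.2 and 74.5 on control array 1 and at 130 and 98.0 on control array 2. The photosystem I core gene psaB stood at 107 and 87.3, and it was the only 1 of the 25 with the higher signal on control array 1.

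Among nuclear genes with a symbol, AER came first with 120 and 133 times the median (6.98 ± 0.10). It encodes an alkenal reductase, which disarms reactive products of lipid oxidation. GTR1, a glucosinolate transporter, stood at 100.4 and 114 (6.74 ± 0.13). The aspartic proteinase APA1 stood at 74.3 and 124, and SAMDC, an enzyme of polyamine synthesis, at 77.1 and 109. FDH, formate dehydrogenase, stood at 64.0 and 125, the widest spread of the 25 (6.48 ± 0.68). The other 14 of the 25 carry only a locus code in the tables used, and AT4G01870 (99.5 and 165), AT5G16010 (102 and 153) and AT2G38870 (117 and 132) led them. Across the 25, the brighter array exceeded the dimmer by 1.07 to 1.95 times, and after cyclic loess, a scaling that removes the trend of the difference with signal, the log2 differences ran from -1.01 to 0.25, so which array is higher rests on the scaling.

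**Figure D1:**
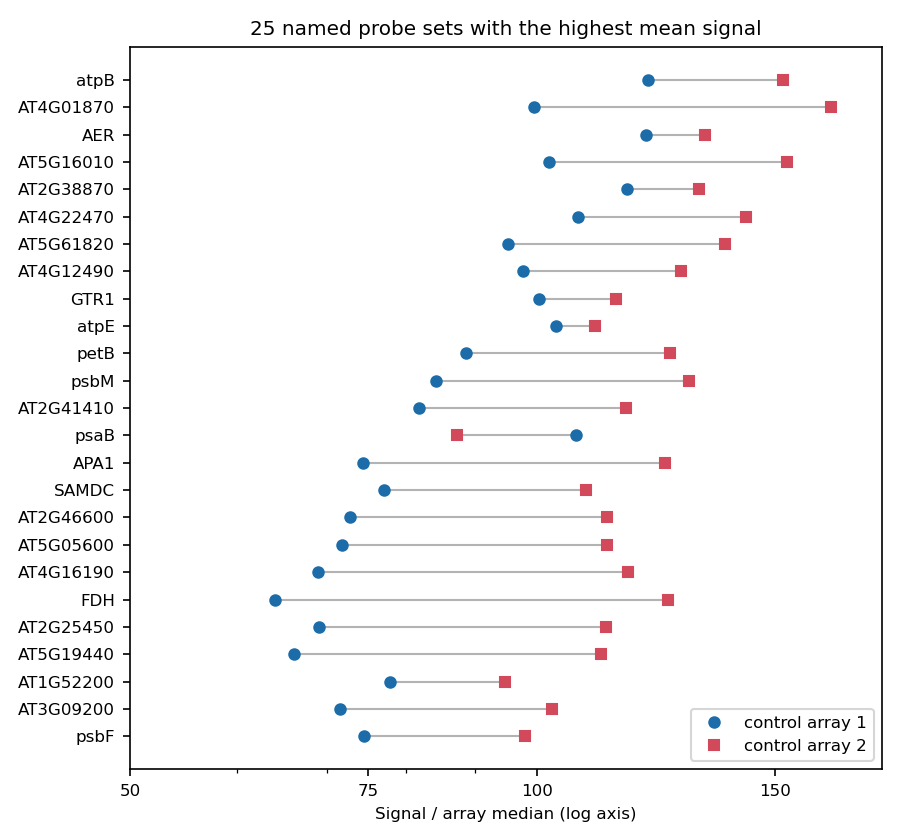
Signal of the 25 named probe sets with the highest mean, as times the array median on a log axis, for control array 1 (circles) and control array 2 (squares), with a grey line joining the arrays. In 24 of 25 the square lies to the right, and only psaB has the higher signal on control array 1.

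Next among nuclear genes with a symbol came cytochrome c (CYTC-1, 60.1 and 93.1 times the median), the pirin PRN (65.8 and 75.8) and the glycosyltransferases UGT87A2 (64.8 and 76.4) and IAGLU (61.5 and 78.9). The lipocalin TIL (46.8 and 99.3), the glutaredoxin GRXC2 (55.7 and 76.0) and the dehydration-responsive RD2 (49.4 and 80.8) were among those that followed. Respiration and glycolysis were represented among the 40 highest by GAPC2, TPI, IDH-V and SDH1-1, which stood between 32.6 and 45.2 times the median on control array 1. Defence and wounding were represented there by the zinc finger factor STZ (46.7 and 44.2), WRKY6 (47.2 and 43.4), the defensin PDF1.4 (35.8 and 45.5) and the jasmonate-regulated JRG21 (66.7 and 64.4). These 40 were picked for their signal after the values had been seen, and not all defence genes were bright. PDF1.2 stood at 0.690 and 0.270 and WRKY53 at 0.945 and 0.864, while 4 of 5 measured early wound and elicitor genes lay above the median of both arrays.

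The 2 arrays shared most of their brightest named genes. Of the 100 highest named probe sets on each array 77 were shared, as were 64% of the 25 highest, 72% of the 50 highest and 79% of the 200 highest. The 77 held 16 of 125 measured loci listed as cytosolic ribosomal proteins (12.8%) and 11 of 69 plastid genes (15.9%). They also held 2 of 9 measured subunits of the 26S proteasome (22.2%). Of all 13513 named probe sets 0.57% were among the 77. None of the 923 probe sets of annotated pseudogenes was, though at a share of 0.57% few would be. A further 23 named probe sets were among the 100 highest on control array 1 only and 23 on control array 2 only. Of the first 23, 9 were plastid genes, among them psbA, atpH and psaA, and of the second 23, 1 was (petA). For scale, 69 of the 13513 named probe sets were plastid genes. RCA and the NDH-related chloroplast gene PIFI were among those on control array 2 only.

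Gene lists are read against all probe sets, of which 8.69% lay in the top 10% of both arrays, 46.9% above the median of both and 35.7% below the 40th percentile of both. The lists draw on the 13513 probe sets with a single name, which were somewhat dimmer. Of these, 6.17% lay in the top 10% of both arrays, 5684 above the median of both and 5432 below the 40th percentile of both. Most loci for protein synthesis were bright. Of the 216 loci listed as cytosolic ribosomal proteins 125 were measured, and 94 of these (75.2%) lay in the top 10% on both arrays. Their median was 23.5 times the array median on control array 1 and 32.2 on control array 2, and AT3G09200 was the brightest with 71.5 and 103. A few were very low on both arrays, such as AT5G09500 at 0.0414 and 0.101, so single loci of the family differed widely in signal. Of 9 measured proteasome loci 6 lay in the top 10% on both arrays, with a median of 28.0 and 40.6 times the array median. The regulatory subunit RPN12a stood at 35.1 and 52.6.

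Chloroplast functions varied. Of the 69 plastid genes 35 (50.7%) lay in the top 10% on both arrays, and 63 lay above the median of both. Of the 44 nuclear photosystem and light-harvesting loci only 7 were measured, and all 7 lay above the median of both arrays. Besides LHCB4.1, the photosystem II subunit PSBW stood at 34.4 and 45.6 times the median and the photosystem I subunit PSAE-1 at 25.6 and 56.2. LHCB4.3, another gene of the LHCB4 family, stood at 1.92 and 1.66. Of 9 measured Calvin-Benson and photorespiration genes 8 lay above the median of both arrays but only RCA in the top 10% of both. ATPC1, the nuclear gamma subunit of the plastid ATP synthase, stood at 14.5 and 44.1. In chlorophyll synthesis 7 of 24 genes were measured, from HEMB1 at 18.6 and 27.1 down to CHLI2 at 0.776 and 1.25. PORB, a light-driven reductase of that pathway, stood at 2.31 and 3.78.

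Protection from oxidants was high as well, in a list from which misplaced entries had been taken out after a first run. All 7 measured genes lay above the median of both arrays, led by ATMDAR2, a monodehydroascorbate reductase, with 42.5 and 59.99 times the median. GR1, a glutathione reductase, stood at 34.0 and 46.2, and the stromal and thylakoid ascorbate peroxidases SAPX and TAPX at 17.4 and 6.09 on control array 1 and at 36.8 and 12.5 on control array 2. All 11 measured autophagy genes lay above the median of both arrays. The ubiquitin-like coat genes ATG8F and APG8H led them with 14.2 and 13.6 on control array 1 and 30.7 and 30.4 on control array 2, and ATG8G was lowest at 2.32 and 2.73. Of 6 measured genes that respond to sugar starvation or darkness 5 lay above the median of both arrays, and AKINBETA1, a regulatory subunit of the SnRK1 kinase, stood at 3.81 and 8.22.

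Wall-loosening genes were mostly low. None of 26 measured xyloglucan endotransglucosylase (XTH) and expansin genes lay above the median of both arrays. The brightest, XTH29, stood at 0.970 and 1.02 times the median, and 18 of the 26 lay below the 40th percentile of both. A broader list of wall loosening and pectin genes had 2 of 9 measured above the median of both arrays, AT3G43270 at 36.2 and 8.83 and AT3G49220 at 3.50 and 3.13. In that list 4 of 9 lay below the 40th percentile of both, not far from the share of all single-name probe sets. Of 5 measured hypoxia genes 4 lay below the 40th percentile of both. Families of specialised metabolism spread widely. Of 47 glycosyltransferase (UGT) genes 8 (17.0%) lay in the top 10% of both arrays, against 6.17% of single-name probe sets and 8.69% of all. Another 15 lay below the 40th percentile of both, against 5432 of 13513 single-name probe sets and 35.7% of all. Of 23 cytochrome P450 genes 11 lay below the 40th percentile of both, not far from the share of single-name probe sets. CYP71B6 stood at 21.7 and 34.4. The 923 pseudogene probe sets had a median of 0.0865 and 0.0544 times the array median.

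**Figure D2:**
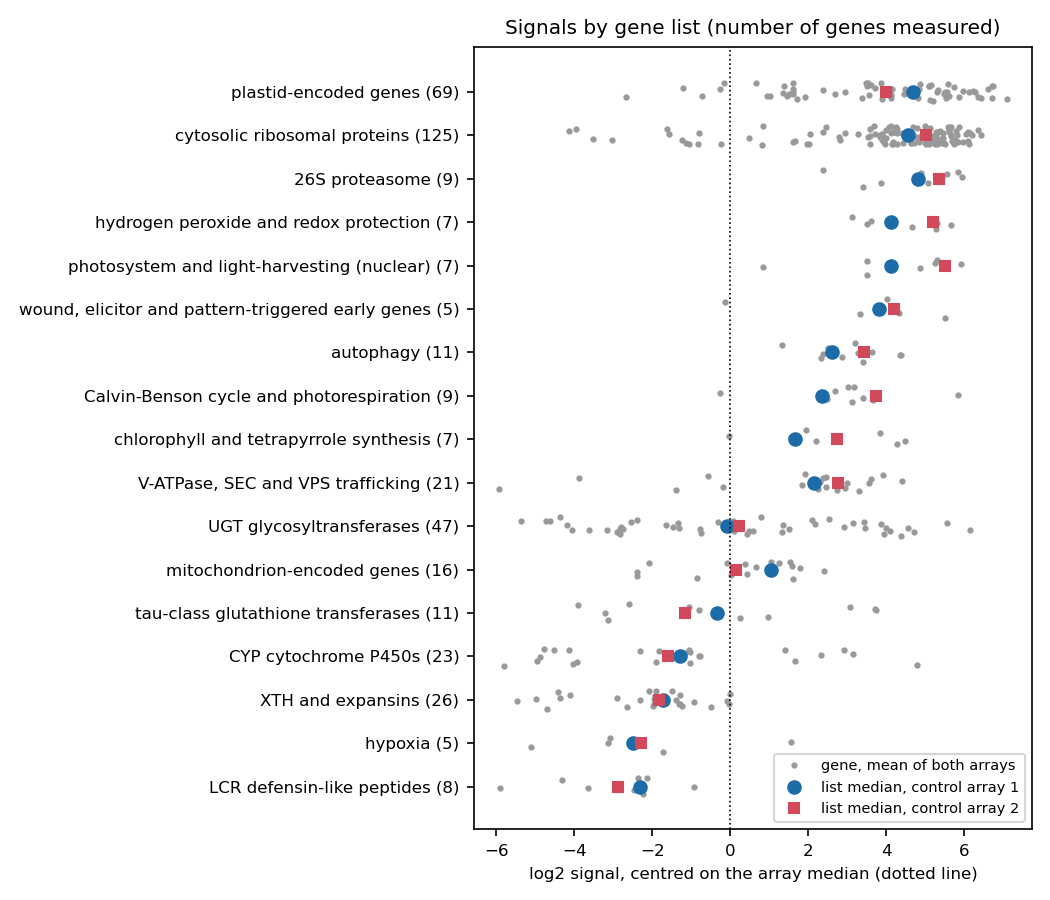
Log2 signal centred on the array median for selected gene lists, with the number of genes measured in brackets. Grey points are genes (mean of both arrays), and circles and squares are list medians on control array 1 and control array 2. Ribosomal, proteasome and plastid lists lie far right of the dotted array median, while XTH and expansin, hypoxia and LCR genes lie left of it.

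The 2 arrays differed in their spread of signals, which touches every difference that follows. The median signal was 490 on control array 1 and 344 on control array 2, the 10th percentile 26.7 and 11.9, and the 90th 4677 and 5055. Over all 22746 probe sets, as a description, Pearson's r between the arrays was 0.932 and Spearman's rho 0.951. After centring on the array medians, probe sets in the lowest of 5 equal bins of signal had a median difference (control 2 minus control 1, log2) of -0.67, and those in the highest bin one of 0.61. Differences are therefore given as centred and again after cyclic loess. The 25S ribosomal RNA control probe set had 1.58 times the median on control array 1 and 0.401 on control array 2, and the 3'-to-5' signal ratio of actin was 2.52 and 1.97. Their part in the differences was not tested.

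Of the 13648 probe sets whose mean signal reached the 40th percentile, 1693 (12.4%) were at least 2-fold higher on control array 2 and 612 (4.48%) at least 2-fold higher on control array 1. After cyclic loess the counts were 533 (3.91%) and 735 (5.39%), so the balance between the directions turned with the scaling. With the values as deposited it turned too, to 359 and 1564. The KIN10 arrays of the same experiments share no array with the control pair, so they give a second reading of experiment 2 against experiment 1. Of the 533 and 735 probe sets after loess, 90.2% and 92.0% differed in the same direction there, against 40.7% and 59.3% of all 13648. A limma fit over all 4 arrays with experiment and group as terms called 5689 probe sets (41.7%) higher in experiment 2 and 796 (5.83%) higher in experiment 1 at an adjusted p under 0.05. The fit had 1 residual degree of freedom, and with quantile normalization it called 933 and 879, so its counts rest on the scaling.

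**Figure D3:**
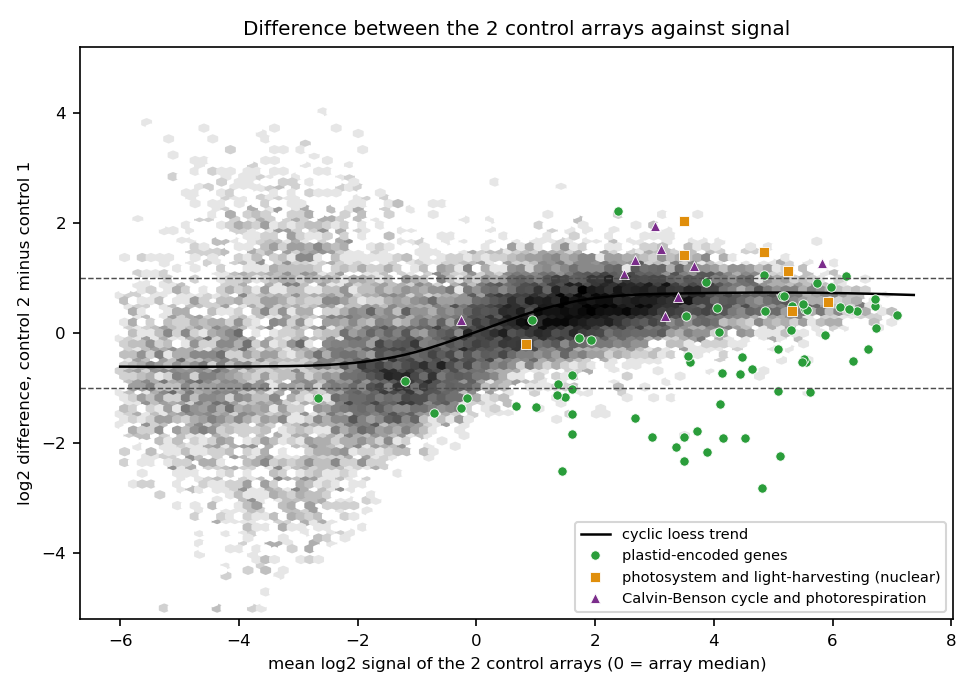
Log2 difference between the control arrays (vertical axis, control 2 minus control 1) against their mean log2 signal (horizontal axis, 0 is the array median), with all probe sets in grey and darker where more lie. The black line is the cyclic loess trend and dashed lines mark 2-fold. Plastid genes (green) lie largely below the line and Calvin-Benson genes (purple) largely above it. The nuclear photosystem genes (orange) lie on both sides, with LHCB4.1, PSBW and LHCB4.3 below.

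Nuclear genes for chloroplast functions were higher on control array 2. Over the photosystem, electron transport, Calvin-Benson and chlorophyll lists, 25 genes passed the filter and 24 of them had the higher centred signal on control array 2, of which 15 by at least 2-fold. Of all probe sets that passed, 74.2% were higher on control array 2 and 12.4% by at least 2-fold. The median difference was 1.06 against 0.41 over all probe sets that passed. After cyclic loess it was 0.40 against -0.11, 18 of the 25 were higher on control array 2, against 41.3% of all, and 2 remained at least 2-fold apart, against 3.91% of all. In the KIN10 arrays 24 of the 25 were higher in experiment 2, against 77.5% of all (median 1.50 against 0.70).

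The 2 that stayed past 2-fold after loess were PSAN and PRK. PSAN, which helps photosystem I accept electrons from plastocyanin, stood at 5.61 and 22.9 times the median (4.08-fold; log2 difference 2.03, and 1.31 after loess). PRK, which makes the carbon dioxide acceptor of the Calvin-Benson cycle, stood at 4.09 and 15.8 (3.87-fold; 1.95, and 1.24 after loess). SBPASE differed by 1.53 and HPR, of photorespiration, by 1.21, and after loess by 0.81 and 0.49. LHCB4.3 was the only 1 of the 25 with the lower centred signal on control array 2 (-0.20).

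Plastid genes differed in the opposite direction. Of 67 that passed the filter, 42 were lower on control array 2 as centred, 25 by at least 2-fold, and 3 were at least 2-fold higher there, against 4.48% and 12.4% of all probe sets that passed. The median difference was -0.51, and after loess -1.20, with 39 genes at least 2-fold lower and 1 higher, against 5.39% and 3.91% of all. Of the 25, 24 were lower in experiment 2 in the KIN10 arrays as well, against 22.5% of all probe sets that passed. The median of the 67 in the KIN10 arrays was -1.03. The usual T7 labelling starts from poly(A) tails, which most plastid transcripts lack, so plastid signals are not on 1 footing with nuclear ones.

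The widest plastid difference was in psbA, which encodes the D1 protein of photosystem II. It stood at 74.9 times the median on control array 1 and 10.6 on control array 2, a 7.06-fold difference (-2.82, and -3.55 after loess). Of other photosystem II core genes, psbB stood at 25.4 and 5.07 (-2.33) and psbD at 26.9 and 11.1 (-1.28). For photosystem I, psaC stood at 31.4 and 6.98 (-2.17), while psaJ, at 59.0 and 57.7, and psaI, at 38.4 and 40.1, were nearly even. The Rubisco gene rbcL stood at 5.79 and 1.62 (-1.84).

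Genes side by side on the plastid chromosome did not all differ alike. In the run atpA, atpF, atpH and atpI the differences were -0.51, -1.06, -2.24 and -2.51, whereas atpB and atpE, in another place, differed by 0.33 and 0.10. In the run psbB, psbT, psbH, petB and petD they were -2.33, -1.55, 0.49, 0.50 and -1.13. The photosystem II genes psbE, psbF, psbL and psbJ were 0.40 to 0.84 higher on control array 2 as centred, but after loess only psbE remained above 0 (0.11). The NDH genes ndhI and ndhA were higher on control array 2 by 1.04 and 1.06, in contrast to ndhE at -1.89. The ribosomal protein gene rpl36 was the highest of the plastid genes at 2.21 (2.42 and 11.2 times the median), and it was the 1 that stayed past 2-fold after loess. By complex, the medians were -0.79 for 6 atp genes, -0.84 for 10 ndh genes, -0.83 for 6 pet genes, -0.29 for 5 psa genes, 0.40 for 15 psb genes and -1.39 for 4 rpo genes, which encode the plastid RNA polymerase. The psb median turned to -0.32 after loess, and in the KIN10 arrays it was -1.67. There the other medians were -2.74 for atp, -0.69 for ndh, -1.08 for pet, -0.33 for psa and -1.56 for rpo genes. Differences of neighbouring genes correlated with a Pearson r of 0.369 over the 69 genes, which share the same 2 libraries.

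**Figure D4:**
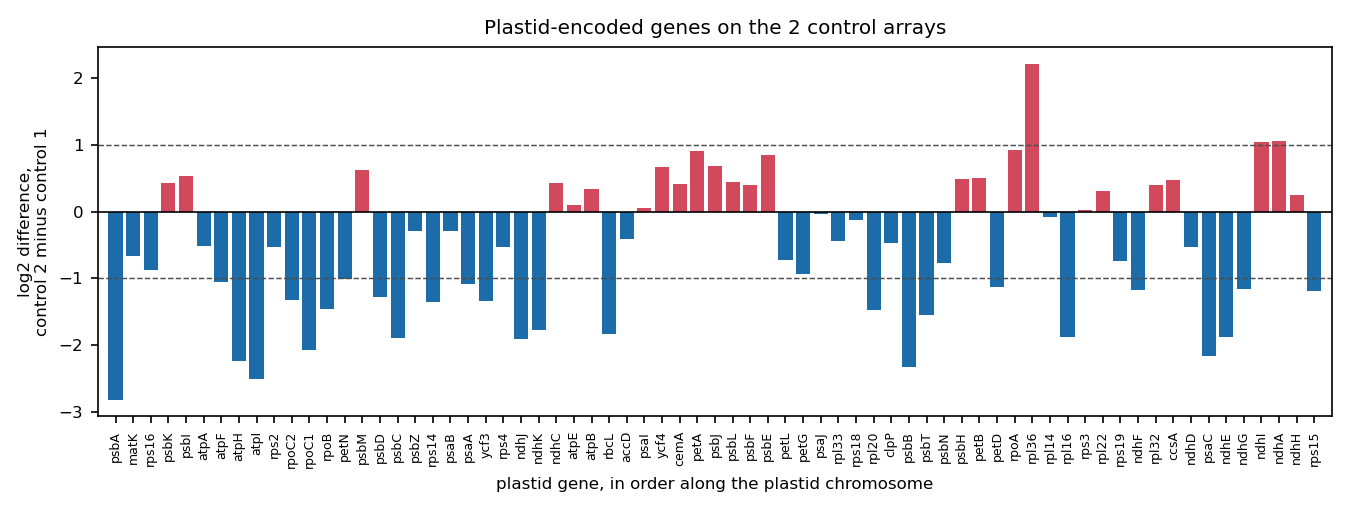
Log2 difference (control 2 minus control 1, centred) for each of the 69 plastid genes in their order along the plastid chromosome, with dashed lines at 2-fold. Blue bars (lower on control array 2) reach -2.82 at psbA and form runs around atpH and atpI, while the red bars around petA and psbE and at rpl36 point the other way.

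Mitochondrion-encoded genes were also lower on control array 2. All 13 genes that passed the filter were, 4 of them by at least 2-fold, against 4.48% of all probe sets (median -0.78). After loess 7 were, against 5.39% of all (median -1.04). The cytochrome c maturation gene ccb452 stood at 7.67 and 3.65 times the median, and cox1, a subunit of cytochrome c oxidase, at 2.51 and 1.68. The gene nad1 had 7 probe sets, and the one with the widest difference stood at 2.08 and 0.466. The locus AT2G07674 (1.85 and 0.422) lies in the part of chromosome 2 that holds a nuclear copy of mitochondrial DNA, so its signal cannot be told apart from that of the mitochondrial transcript. Likewise, the nuclear copy may add to the signals of the mitochondrial genes above, which was not tested.

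The nuclear genes that differed most are given next, chosen by the size of that difference, so their values are a description. The 15 named probe sets furthest above on control array 2 differed by 2.96 to 4.14 (7.78- to 17.7-fold). All 15 kept at least 2-fold after loess, which differences this wide could hardly lose, and had the same direction in the KIN10 arrays. On control array 1, 9 of the 15 lay below the 40th percentile, where signals are less certain. The widest was AT5G44500, at 0.142 and 2.52 times the median. Those with a symbol were MGL, a methionine gamma-lyase, at 0.233 and 2.43, ECS1 at 4.71 and 45.9, and SKU5, known from directional root growth, at 0.207 and 1.70. ECS1 was the brightest of the 15 on control array 2, and its difference was 3.28, or 2.56 after loess.

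Further genes with a symbol in the same direction, chosen from many of varied kinds after their values had been seen, are given as examples. The alpha-amylase AMY1 stood at 1.48 and 7.30 times the median and the starch branching enzyme SBE2.2 at 1.80 and 6.77. The glutathione transferase GSTU25 stood at 6.06 and 27.9 (2.20, and 1.48 after loess), and FMO at 2.38 and 14.0. The dehydrin COR47 stood at 12.6 and 42.6, whereas the related cold-response genes COR15A and COR15B were close, at 4.73 and 6.74 and at 5.17 and 5.11. IVD, of leucine breakdown, stood at 4.09 and 15.8. The clock gene GI stood at 1.59 and 5.17, a 1.71 difference. Of the sugar starvation list, 3 of 6 were at least 2-fold higher on control array 2, against 12.4% of all probe sets, and 2 after loess, against 3.91%. Its member AT3G15450 differed by 2.13 (1.42 after loess). Of 11 autophagy genes 5 were at least 2-fold higher as centred and none after loess, when the list's median was 0.12.

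In the opposite direction the 15 widest differences ran from -2.11 to -2.82 (4.32- to 7.06-fold). On control array 2, 7 of the 15 lay below the 40th percentile, where signals are less certain. All 15 kept at least 2-fold after loess, which again their width nearly fixed in advance. They were shared between 5 plastid genes, the mitochondrial nad1 and matR, and 8 others. The widest nuclear one was PUB23, a ubiquitin ligase of immune signalling, at 16.7 and 2.60 times the median (-2.68). Its close relatives PUB22 and PUB24 stood at 22.5 and 6.48 on control array 1 and at 7.14 and 3.93 on control array 2. The same 3 genes were lower in experiment 2 in the KIN10 arrays, but by less (-0.91, -0.33 and -0.20). The probe sets of such close relatives may share hybridization. The peroxidase PRX52 stood at 36.6 and 13.2, and in the KIN10 arrays it differed by -1.42.

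Some regulators of defence and jasmonate signalling, picked after their values had been seen, were lower on control array 2. The second reading of the experiment difference, from the KIN10 arrays, did not repeat this for WRKY22, JMT and ORA47. WRKY22 stood at 7.01 and 2.55 times the median (-1.46), with a second reading of 1.23. The jasmonate methyltransferase JMT stood at 3.34 and 1.28 (-1.39), with 0.74, and the factor ORA47 at 1.23 and 0.398 (-1.62), with 0.06. The glutaredoxin GRX480 stood at 6.82 and 2.99 (-1.19), and in the second reading it was lower too, but by less (-0.33). Whether the 2 readings differ was not tested, since each rests on 1 pair of arrays. Of 5 measured early wound and elicitor genes none was 2-fold apart, which with 12.4% and 4.48% of all probe sets past 2-fold each way says little about the list.

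**Figure D5:**
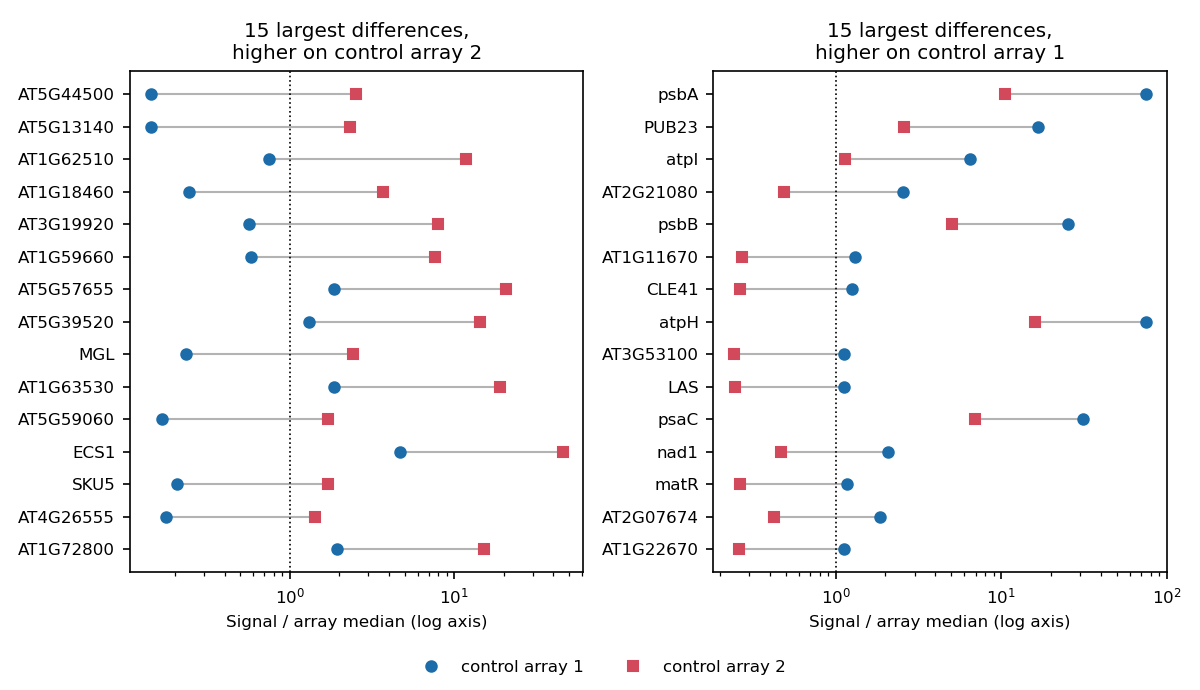
The 15 named probe sets with the widest difference in each direction, as times the array median on a log axis, for control array 1 (circles) and control array 2 (squares). The dotted line is the array median, and on the left 10 circles lie below it, while on the right 9 squares do.

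Some bright genes were nearly even. Of the 200 highest named probe sets, AT4G20830, psaJ, JRG21, AT3G05220 and psaI had the smallest centred differences, between -0.06 and 0.06. After loess each of them was lower on control array 2, with differences of -0.68 to -0.79. Genes near the trend of bright probe sets included the reference gene GAPC2, at 45.2 and 72.4 times the median (0.68, and -0.05 after loess). Of 116 ribosomal protein loci that passed the filter only 1 was at least 2-fold apart in each direction, with a median of 0.45, or -0.27 after loess, and none was past 2-fold after loess. No proteasome locus was 2-fold apart.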

How the data were processed

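Per the labels' protocols, RNA was purified with Trizol and RNeasy, labelled and hybridised to Affymetrix arrays. The deposited values are linear intensity values per probe set, and GCOS 1.0 is the tool named in the submitters' processing notes, with settings not given in the sources used here. Each control array, as deposited, had a trimmed mean of 1500.13, so the arrays were scaled to a common mean. The number of arrays limits the precision. Log2 values were taken after 1 value at 0 was replaced by the smallest positive one, the 64 control probe sets were left out, and each array was centred on its median over 22746 probe sets. Differences used the 13648 with a mean at or above the 40th percentile of the control arrays, and calls were at least 2-fold, with no test. The 4-array fit used limma 3.58.1 in R 4.3.3 (experiment and group as terms, intensity trend, Benjamini-Hochberg). It was also run on simulated data, which held no trend of the difference with signal, so that run does not bear on the calls made here. The prior degrees of freedom of the fit to the arrays were infinite, so its p-values pool all probe sets, and none is printed for a single gene.

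Named were the 25 highest means, the 15 widest differences each way, the 5 smallest differences among the 200 highest, the highest, lowest and widest of each list, and all markers. Symbols came from the platform annotation updated through RefSeq (TAIR10.1), with 13436 of 13513 single names matched. Gene lists numbered 22 at first, with 111 of 506 entries measured (21.9%). Those counts follow the removal of misplaced entries from the list of protection from oxidants, made after a first run. Another 22 lists were added after values had been seen. A planned set of keyword classes was not used, because the tables hold no gene descriptions. All members and lists were chosen with earlier results of these data known, and nothing is tested over a list. The results of 1 list are not reported here. Where a gene had several probe sets, the one with the highest mean stood for it in a list. Alternatives were other scalings, an offset of 32, other filters and left-out arrays.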

Additional observations from a re-analysis of the deposited data

How the results depend on the processing

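The count of probe sets at least 2-fold apart (2305) was 1294 with quantile normalization, 1268 with cyclic loess, 3728 with spike-in centring, 7166 with no filter and 1425 with a filter at the 60th percentile. The limma count (6485) was 2865 with the values as deposited, 3009 with centring on the probe sets past the filter and 1812 with quantile normalization. Leaving out 1 array left the limma fit no residual degrees of freedom. The 2-fold count of 2305 is that of the control pair itself, so leaving out a KIN10 array does not change it. The KIN10 pair's own count between the experiments was 5478, which is not a check on the control count. Under deposited values, quantile normalization and cyclic loess, the list median differences were 0.62, 0.56 and 0.40 for nuclear photosystem genes, 0.70, 0.59 and 0.49 for Calvin-Benson genes, and -1.03, -1.04 and -1.20 for plastid genes, each with its main direction. For these lists spike-in centring gave 1.38, 1.45 and -0.27. Ribosomal, proteasome, redox and wound lists turned from above 0 to below it with cyclic loess. For the 30 genes with the widest differences, all 180 values over 6 scalings and offsets kept their direction and at least 2-fold. These genes were picked for wide differences, and the centred minus the loess difference ran only from -0.35 to 0.74 over probe sets past the filter. Their outcome was thus nearly fixed in advance and says little on robustness. The share of the highest named probe sets common to both arrays was 77% for the 100 highest, 72% for 50 and 79% for 200, and 75% for the 100 highest of all probe sets. No leave-one-out exists for the control difference, which needs both arrays. No paired analysis was possible because the replicate number is the experiment, which is itself the contrast. Signals near those of the Bacillus controls carry little information on order.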
